A study of Mus musculus with 6 samples.

Results

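The 10 genes *Gad1*, *Gad2*, *Pvalb*, *Sst*, *Vip*, *Npy*, *Cck*, *Calb2*, *Cort*, and *Lamp5*, which mark cortical inhibitory interneurons or encode neuropeptides of the cortex, are described here in stroke infarcts at 7 weeks after stroke. They were given by name with earlier results of these data known, out of 46078 genes in the count tables. Of these, 9 held enough counts to enter the test over 15554 genes, and *Cort* did not.

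RNA-Seq was performed on 3 infarcts and on 3 matching regions of the opposite cortex, called contralateral cortices. All mice were wild-type C57BL/6J mice with a labelled age of 3 months. Per the methods they were males in which the middle cerebral artery was permanently closed and which then breathed low oxygen, a model called DH stroke. The contralateral cortex of a mouse with a stroke served as the control, so both groups had been through the same surgery. The labels name no drug treatment and do not say which infarct and which cortex came from 1 mouse. One mRNA library was made from each tissue sample, so *p* values measure the spread between these samples. Gene counts ranged from 12146959 to 13427057 in the infarct libraries and from 11943570 to 19933962 in the contralateral libraries.

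Inhibitory interneurons make γ-aminobutyric acid (GABA) from glutamate and release it onto nearby neurons. In the cortex they fall into subclasses that are recognized by a calcium-binding protein, a peptide or a surface protein, namely the parvalbumin, somatostatin, VIP, and LAMP5 cells. Peptides such as somatostatin, neuropeptide Y, and cholecystokinin are cut from longer precursors, stored in dense-core vesicles, and act on G-protein-coupled receptors.

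The sequences of somatostatin and cortistatin are shown first, because the genes encode related peptides and share a stretch of coding sequence. Capitals mark the bases that are identical in *Sst* and *Cort* over 37 bases of the minus strand of GRCm38, at chr16:23889732-23889768 for *Sst* and at chr4:149125270-149125306 for *Cort*, each within a single coding exon.

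Sst: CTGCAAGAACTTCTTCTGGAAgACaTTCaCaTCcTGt
Cort: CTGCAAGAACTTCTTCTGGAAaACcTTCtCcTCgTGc

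Of the 37 bases, 31 were identical, and the first 21 form the longest run shared by both transcripts. The longest shared run was 17 bases between *Gad1* and *Gad2* and 11 bases between *Pvalb* and *Calb2*. No exon of the 10 genes overlapped an exon of another annotated gene on either strand.

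A RefSeq promoter window of 300 bases on GRCm38.p6 was found by symbol for 9 of the 10 genes, and none for *Calb2*. The windows follow RefSeq starts, and the stretches printed here for *Gad2* and *Sst* lie inside the gene coordinates given below. The windows were searched on both strands for CGTCA, the core of the cAMP response element, and for the whole palindromic element TGACGTCA, which contains CGTCA on both strands. CGTCA was found in 5 of the 9 windows, beside 20.8% of all 32851 windows, and TGACGTCA in 1 of the 9, beside 1.79% of all windows. A match is a match of letters and no evidence of a bound factor. All 10 genes, not only the 5 with a match, had lower values in every infarct library than in any contralateral library. That order also held for 34.7% of the tested genes. The 30 bases around each match are shown in the direction of the gene, with the match in capitals. They come from chr2:22622282-22622311 on the plus strand for *Gad2*, chr4:149126764-149126793 on the minus strand for *Cort*, chr9:121495724-121495753 on the minus strand for *Cck*, chr10:5639127-5639156 on the plus strand for *Vip*, and chr16:23890874-23890903 on the minus strand for *Sst*.

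Gad2: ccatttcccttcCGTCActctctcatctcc
Cort: ctccggcttgtgCGTCAccgcgtgagtgtg
Cck: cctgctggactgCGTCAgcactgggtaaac
Vip: ggatcactactgTGACGtctttcggggagc
Sst: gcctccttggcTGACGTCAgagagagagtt

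Each of the 9 tested genes was downregulated in infarcts, with falls between 5.27-fold for *Npy* and 23.4-fold for *Lamp5*. The test was edgeR's quasi-likelihood test, and a gene passed when it changed more than 2-fold at an adjusted *p* below 0.05. Over all tested genes 20.9% were called lower and 25.7% higher, and the median log2 fold change was 0.03. *Calb2* reached the low-count filter cutoff of 0.771 CPM in all 3 contralateral libraries but in only 1 infarct library. Its entry rested on its contralateral libraries, so its fall was in part required for that entry. The same limit holds for *Elfn1*, *Tac2*, *Sstr2*, *Cckbr*, *Npy5r*, and *Adcyap1*, named below, and in the other direction for *Vipr2* and *Adora2a*. For each, not all 3 libraries of the lower region reached the cutoff. That also held for *Npy2r* and *Gm10118*, likewise named below. For all 10 genes the 3 infarct libraries lay below the 3 contralateral libraries, an order that held for 34.7% of the tested genes. In bulk tissue, fewer cells of a type and less RNA per cell cannot be told apart. Values are CPM, which scale the counts of a gene to the TMM-adjusted total of its library, and with library totals in place of TMM all log2 fold changes would shift upward, by a median of 0.20. Without the low-count filter 13.4% of 27012 genes were called lower, among them 8 of the 10 genes, since *Cck* and *Cort* were not.

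**Figure D1:**
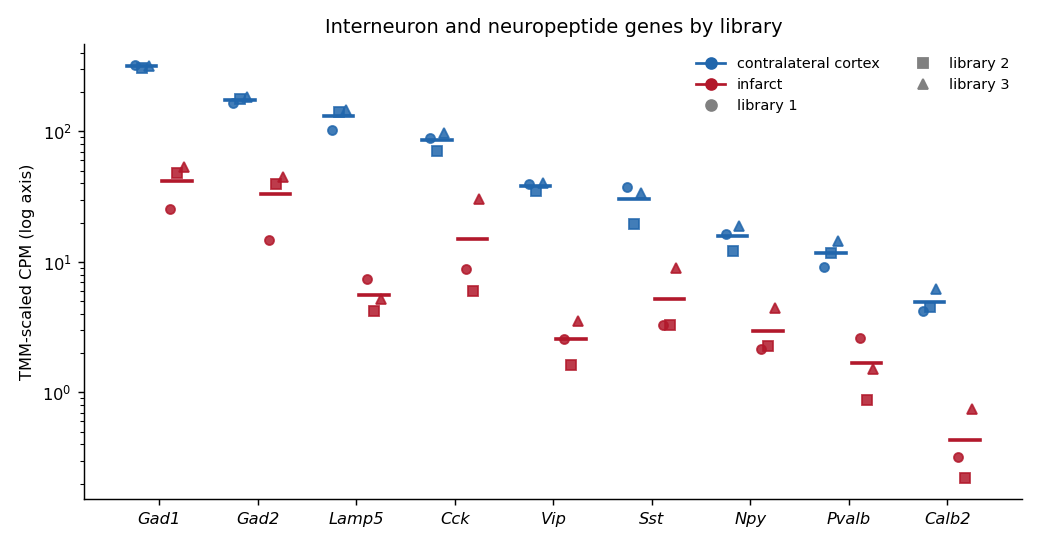
TMM-scaled CPM (log axis) of the 9 tested genes in each library, with infarcts in red, contralateral cortices in blue, a symbol for each library number and a line at each mean. For every gene the 3 infarct points sit below the 3 contralateral points, and the infarct points of *Cck* spread the most, from 5.94 to 30.6 CPM.

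Glutamate decarboxylase, the enzyme that makes GABA, is encoded by *Gad1* and *Gad2*, which are used as general markers of inhibitory neurons. *Gad1* (ENSMUSG00000070880, chr2:70553072-70602014) had 25.4, 47.6, and 53.1 CPM in the infarcts and 325, 306, and 319 CPM in the contralateral cortices. The contralateral values were nearly equal, and infarct 1 was the lowest. The mean was 42.0 ± 14.7 CPM in infarcts against 317 ± 9.59 CPM (SD, n = 3 each), a log2 fold change of -2.91 (SE 0.26, edgeR adjusted *p* = 1.14e-05), or 13.3% of the contralateral level. *Gad2* (ENSMUSG00000026787, chr2:22622205-22693874), whose enzyme sits at synaptic vesicles, had 14.8, 39.4, and 45.0 CPM in the infarcts and 164, 178, and 185 CPM in the contralateral cortices. Infarct 1 was again the lowest. Its log2 fold change was -2.41 (SE 0.38, edgeR adjusted *p* = 8.79e-04), a 5.30-fold fall.

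*Pvalb*, *Calb2*, and *Lamp5* mark subclasses by proteins that are not peptides. *Pvalb* (ENSMUSG00000005716, chr15:78191114-78206400) encodes parvalbumin, the calcium-binding protein of fast-spiking basket and chandelier cells. It had 2.62, 0.880, and 1.50 CPM in the infarcts, from 33, 12, and 22 counts, and 9.07, 11.6, and 14.5 CPM in the contralateral cortices. Unlike *Gad1*, it was highest in infarct 1. The log2 fold change was -2.81 (SE 0.37, edgeR adjusted *p* = 1.08e-04), a 7.03-fold fall. *Calb2* (ENSMUSG00000003657, chr8:110137502-110168210) encodes calretinin, a calcium-binding protein of many VIP cells. Its infarct values rested on 4, 3, and 11 counts, against 80, 69, and 67 counts in the contralateral cortices, or 0.429 ± 0.282 against 4.94 ± 1.08 CPM (SD, n = 3 each). Infarct 3 held most of the infarct counts. The log2 fold change was -3.47 (SE 0.45, edgeR adjusted *p* = 1.00e-04), a fall of 11.1-fold, or 17.6-fold without infarct 3. *Lamp5* (ENSMUSG00000027270, chr2:136052239-136069917) encodes a membrane protein of neurogliaform and related interneurons and is also expressed by some excitatory neurons. It had 7.39, 4.18, and 5.18 CPM in the infarcts and 103, 141, and 147 CPM in the contralateral cortices, with infarct 1 the highest of the infarcts and contralateral cortex 1 the lowest of the controls. The log2 fold change was -4.55 (SE 0.25, edgeR adjusted *p* = 5.09e-07), leaving 4.28% of the contralateral level.

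Among the peptide genes, *Vip* (ENSMUSG00000019772, chr10:5639218-5647617), the precursor of vasoactive intestinal peptide, fell the most. It had 2.54, 1.61, and 3.54 CPM in the infarcts and 39.8, 34.9, and 40.4 CPM in the contralateral cortices. The contralateral values were narrow, with a coefficient of variation of 7.81%, and that of the infarcts was 37.6%. The 2 sets were far apart, with a log2 fold change of -3.89 (SE 0.27, edgeR adjusted *p* = 1.58e-06), a 14.8-fold fall to 6.69% of the contralateral level.

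*Sst* (ENSMUSG00000004366, chr16:23889573-23890958), the somatostatin precursor of dendrite-targeting interneurons, had 3.26, 3.30, and 8.92 CPM in the infarcts and 37.3, 19.4, and 33.7 CPM in the contralateral cortices. Infarct 3 was the highest infarct and contralateral cortex 2 the lowest control. The log2 fold change was -2.53 (SE 0.45, edgeR adjusted *p* = 0.00144), a 5.79-fold fall that was 9.06-fold without infarct 3. *Npy* (ENSMUSG00000029819, chr6:49822710-49829507), the precursor of neuropeptide Y, had 2.15, 2.27, and 4.43 CPM in the infarcts and 16.3, 12.0, and 18.8 CPM in the contralateral cortices. Its pattern over the 6 libraries followed that of *Sst*, with infarct 3 highest among infarcts and contralateral cortex 2 lowest among controls. The log2 fold change was -2.40 (SE 0.32, edgeR adjusted *p* = 1.08e-04).

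*Cck* (ENSMUSG00000032532, chr9:121489824-121495694), the cholecystokinin precursor, is expressed by a group of basket cells and also by many excitatory neurons. It had 8.83, 5.94, and 30.6 CPM in the infarcts and 88.7, 71.2, and 97.4 CPM in the contralateral cortices. A single library, infarct 3, was far above the other infarcts, and the coefficient of variation in infarcts was 89.1%. The log2 fold change was -2.50 (SE 0.60, edgeR adjusted *p* = 0.00969), a 5.65-fold fall. Without infarct 3 the fall was 11.5-fold (edgeR adjusted *p* = 1.42e-07), and without infarct 1 the log2 fold change of -2.20 did not pass the test (edgeR adjusted *p* = 0.0585).

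*Cort* (ENSMUSG00000028971, chr4:149125034-149126763) encodes cortistatin, a peptide related to somatostatin. The infarcts held 0, 0, and 1 counts of it and the contralateral cortices 4, 6, and 3. The infarct counts lay below the contralateral counts, yet so few reads allow no fold. Tested without the low-count filter, *Cort* did not pass (edgeR adjusted *p* = 0.0678, DESeq2 adjusted *p* = 0.0997).

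Levels of different genes were compared per length, as CPM per kilobase of the union of a gene's exons (RPKM). In contralateral cortices *Cck* ranked highest at 65.7 ± 10.2 RPKM (SD, n = 3), followed by *Lamp5* at 44.5 ± 8.23 RPKM, *Sst* at 41.8 ± 13.1 RPKM, and *Gad1* at 41.5 ± 1.26 RPKM. Only *Cck* stood clear among these, since the ranges of *Lamp5* and *Sst*, and of *Sst* and *Gad1*, overlapped. *Gad2* at 29.9 ± 1.74 RPKM and *Npy* at 27.8 ± 6.05 RPKM overlapped each other. The range of *Sst*, from 27.0 to 51.7 RPKM, overlapped both. *Vip* at 11.3 ± 0.880 RPKM and *Pvalb* at 11.3 ± 2.59 RPKM overlapped as well. *Calb2* was lower at 2.84 ± 0.618 RPKM, and *Cort* was last at 0.431 ± 0.135 RPKM.

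In infarcts the levels were ranked in the same way. The lowest *Gad2* value, 2.517 RPKM, lay below the highest *Lamp5* value, 2.521 RPKM, so higher and lower genes were not fully apart. *Cck* (11.6 ± 10.3 RPKM), *Sst* (7.16 ± 4.52 RPKM), *Gad2* (5.63 ± 2.74 RPKM), *Gad1* (5.50 ± 1.93 RPKM), and *Npy* (5.21 ± 2.27 RPKM) overlapped from neighbor to neighbor. *Lamp5* dropped from the second place in the cortex to the sixth, at 1.90 ± 0.561 RPKM, below the range of *Npy* and overlapping *Pvalb* at 1.60 ± 0.849 RPKM. *Vip* at 0.754 ± 0.284 RPKM overlapped *Pvalb*, and *Calb2* at 0.246 ± 0.162 RPKM lay below both. With the length of the principal transcript in place of the exon union, *Gad1*, whose exon union of 7639 bases covers 8 transcripts, moved to the second place in both regions, at 94.4 RPKM in contralateral cortices and 12.5 RPKM in infarcts, and its range then met that of *Cck* in both. In contralateral cortices *Cck* was then at 109.5 RPKM, *Lamp5* at 66.7 RPKM, and *Vip* at 25.1 RPKM, clear of *Pvalb* at 12.0 RPKM.

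The size of the fall differed among the genes. Among the 3256 genes called lower, the median log2 fold change was -2.00, with the middle 50% between -2.65 and -1.44. *Lamp5* fell further than 99.1% of these genes, *Vip* further than 97.5%, and *Calb2* further than 93.9%, whereas *Npy*, at the other end, fell further than 65.5%. The vesicular glutamate transporter of cortical excitatory neurons, *Slc17a7*, had a log2 fold change of -2.88 (edgeR adjusted *p* = 0.00131), near that of *Gad1*, and of -3.55 without infarct 3. *Snap25*, a component of the release machinery of all neurons, had a log2 fold change of -3.84 (edgeR adjusted *p* = 1.76e-06).

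**Figure D2:**
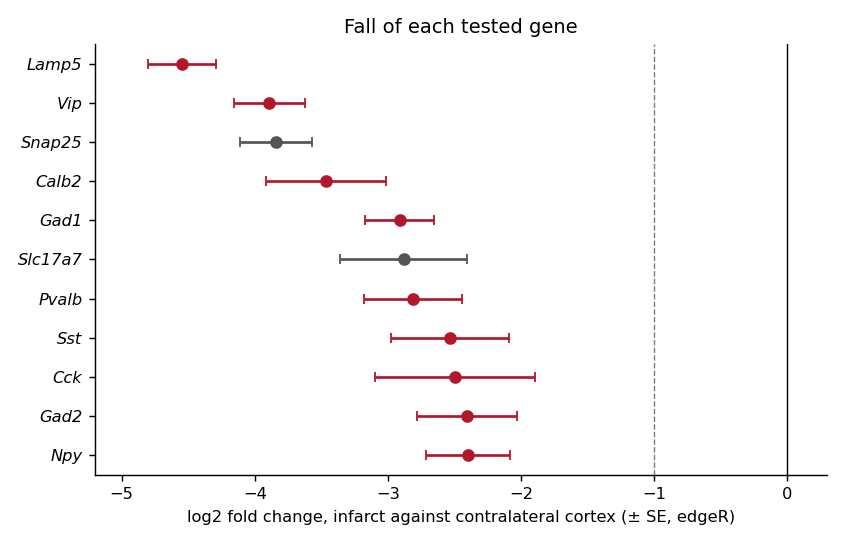
Log2 fold change (infarct against contralateral cortex, edgeR, with the SE as bars) of the 9 tested genes in red and of *Slc17a7* and *Snap25* in gray, ordered by size, with a dashed line at the 2-fold threshold. All lie beyond the threshold, from -2.40 for *Npy* to -4.55 for *Lamp5*.

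Whether the genes fell by unequal amounts was asked with ratios of counts within a library, in which the scaling of libraries cancels. The log2 ratio to *Gad1* was compared between regions by an exact two-sided permutation test, which cannot go below *p* = 0.1 with 3 against 3 libraries. Of 10 ratios compared, 3 had no overlap between regions, those of *Lamp5*, *Vip*, and *Gad2*, and none could pass after adjustment. All of the ratios use the counts of *Gad1*, so they are not independent. The share of all genes whose ratio to *Gad1* had no overlap was not computed. The log2 ratio of *Lamp5* to *Gad1* was -1.77, -3.50, and -3.35 in infarcts and -1.66, -1.12, and -1.12 in contralateral cortices. Infarct 1 came close to contralateral cortex 1, and the mean difference was -1.58 (exact permutation *p* = 0.1, adjusted *p* = 0.333). The log2 ratio of *Vip* to *Gad1* was -3.30, -4.85, and -3.89 in infarcts against -3.03, -3.13, and -2.98 in contralateral cortices, with a mean difference of -0.97 (exact permutation *p* = 0.1, adjusted *p* = 0.333). Here too infarct 1 lay nearest to the controls. *Gad2* moved the other way, with log2 ratios to *Gad1* of -0.78, -0.28, and -0.24 in infarcts and -0.98, -0.79, and -0.79 in contralateral cortices, a mean difference of 0.42 (exact permutation *p* = 0.1, adjusted *p* = 0.333).

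For *Pvalb*, *Sst*, *Npy*, *Cck*, and *Calb2* the log2 ratios to *Gad1* overlapped between regions. The mean differences ran from -0.58 for *Calb2* (exact permutation *p* = 0.4) to 0.53 for *Npy* (exact permutation *p* = 0.3). The ratio of *Cort* was computed as the tenth and is not given, since its infarct counts were 0, 0, and 1. As for inhibitory against excitatory markers, the log2 ratio of *Gad1* to *Slc17a7* was -1.29, -0.99, and -2.06 in infarcts and -1.53, -1.29, and -1.80 in contralateral cortices. The infarct values enclosed the contralateral values, with infarct 2 highest and infarct 3 lowest, and the mean difference was 0.09 (exact permutation *p* = 0.9).

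**Figure D3:**
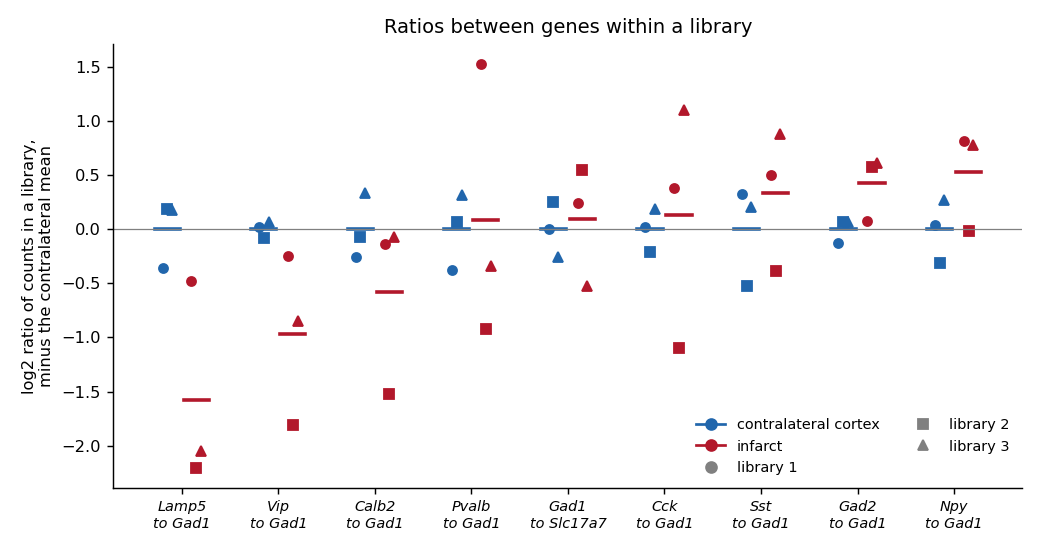
Log2 ratio of counts of each named pair of genes in each library, set to 0 at the contralateral mean of that pair, with infarcts in red, contralateral cortices in blue and lines at the means. The infarct points of *Lamp5* to *Gad1* and *Vip* to *Gad1* lie below the contralateral points, those of *Gad2* to *Gad1* lie above, and the other pairs overlap.

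Across the 6 libraries, the profiles of the genes (log2 of CPM plus 0.5, centred on each gene's mean) were most alike for *Npy* and *Calb2*, with a root-mean-square difference of 0.232, followed by *Sst* and *Npy* at 0.247 and *Gad1* and *Gad2* at 0.280. The infarct values of *Calb2*, at 0.318, 0.220, and 0.749 CPM, were near the added 0.5, which narrows its fall in this measure. The fitted log2 fold changes of *Npy* and *Calb2* were -2.40 and -3.47, and no other added value was tried for the profiles. *Gad2* and *Lamp5* were the least alike pair at 1.19. Of the 9 tested genes, 7 had their highest infarct value in infarct 3, and *Pvalb* and *Lamp5* had it in infarct 1. The tested genes outside the 10 whose profile was nearest to the mean of the 9 were *Pak6*, a kinase gene, at a root-mean-square difference of 0.0263, then *Rnf208* at 0.0801, *Prkar1b*, a regulatory subunit of protein kinase A, at 0.0866, *Gm10118* at 0.0917, and *Tceal6* at 0.0943. *Pak6* had 7.95, 7.26, and 13.4 CPM in infarcts against 72.9, 64.9, and 81.0 CPM in contralateral cortices.

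Infarct 3 also had the highest sums of pan-neuronal and excitatory genes. Summed over 10 pan-neuronal genes, the level was 742, 1185, and 2040 CPM in infarcts and between 10271.5 and 11102 CPM in contralateral cortices. Summed over 12 excitatory genes it was 358, 425, and 1164 CPM against 4468 to 4827 CPM. The summed level of 7 macrophage and microglia genes, all 7 of which rose, was 9459, 8084, and 5846 CPM in infarcts, lowest in infarct 3, against 156 to 214 CPM. All 5 fibroblast genes rose, from 132.5 to 168 CPM in sum to between 4659 and 5776 CPM. All 4 lymphocyte and plasma cell genes rose as well, from 1.36 to 3.50 CPM in sum to between 194 and 2091 CPM. Among the remaining glial and vascular genes, 2 of 4 astrocyte, 1 of 4 oligodendrocyte, and 3 of 4 endothelial genes were called higher and none lower. Over all tested genes 25.7% were called higher and 20.9% lower, so the oligodendrocyte count was near the share of all genes. The part of these other cell types in the results was not tested. The excitatory genes were detected in every library, infarcts included, and 11 of the 12 fell. The exception was *Neurod6*, a transcription factor of excitatory neurons, at 1.83, 4.32, and 41.6 CPM in infarcts and 35.6 to 41.6 CPM in contralateral cortices, so that infarct 3 reached the level of the controls. Its log2 fold change was -1.29 (edgeR adjusted *p* = 0.337) with infarct 3 and -3.64 (edgeR adjusted *p* = 1.31e-06) without it. *Slc17a6*, the vesicular glutamate transporter of thalamic neurons, fell the most of that list (-5.15, edgeR adjusted *p* = 2.06e-04), and had a log2 fold change of -6.25 without infarct 1.

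Striatal genes, which mark the inhibitory projection neurons under the cortex, mostly did not pass the test. Of 7 striatal genes 2 fell, 1 rose, and 4 passed in neither direction, with a median log2 fold change of -0.25, and 20.9% and 25.7% of all tested genes were called lower and higher. Between 0 and 3 striatal genes were called lower under the alternatives, with 0 where no low-count filter was used, 1 without infarct 3, and 1 without any single contralateral library. The summed level was 50.3, 185, and 140 CPM in infarcts and 299 to 323 CPM in contralateral cortices. *Adora2a*, an adenosine receptor gene, rose (2.34, edgeR adjusted *p* = 3.86e-04). *Gad1* and *Gad2* are also expressed by striatal neurons. Both were lowest in infarct 1, where the striatal, pan-neuronal, and excitatory sums were all lowest. Both were highest in infarct 3, as were the pan-neuronal and excitatory sums, whereas the striatal sum was highest in infarct 2. The part of striatal tissue in the values of *Gad1* and *Gad2* was not tested.

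Genes that package, take up, or break down GABA were mostly downregulated. Of 6 genes 5 fell and 1 rose, with a median log2 fold change of -1.89. *Slc32a1*, which loads GABA into synaptic vesicles, had 3.74, 6.60, and 10.2 CPM in infarcts and 33.0, 26.0, and 37.2 CPM in contralateral cortices (log2 fold change -2.22, edgeR adjusted *p* = 3.31e-04). The gene that rose was *Slc6a13*, a GABA and taurine transporter known from leptomeninges, at 33.5, 11.5, and 21.4 CPM in infarcts and 6.54 to 9.07 CPM in contralateral cortices (log2 fold change 1.50, edgeR adjusted *p* = 0.00546).

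Of 16 transcription factor genes and related regulators of interneurons, 15 were tested, 8 fell, 2 rose, and 5 passed in neither direction. The median log2 fold change was -1.44. The chromatin organizer *Satb1* fell the most, with a log2 fold change of -2.89 (edgeR adjusted *p* = 4.83e-07). *Dlx1*, a homeobox gene of the interneuron lineage, and *Lhx6*, which is kept by parvalbumin and somatostatin cells, had log2 fold changes of -1.75 (edgeR adjusted *p* = 3.69e-05) and -1.66 (edgeR adjusted *p* = 3.86e-04). Of the genes that rose, *Maf* had 155, 195, and 135 CPM in infarcts against 48.4 to 68.0 CPM in contralateral cortices (log2 fold change 1.41, edgeR adjusted *p* = 1.28e-04). Macrophages express *Maf* as well, and their part in that rise was not tested.

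Further genes of the interneuron subclasses were mostly lower in infarcts, with exceptions. Of the 6 genes chosen for parvalbumin cells 4 fell and 1 rose (median -2.35). *Syt2*, the calcium sensor of fast release, fell by 3.94 on the log2 scale (edgeR adjusted *p* = 1.58e-06), and *Pthlh*, a secreted hormone-like protein, rose (2.60, edgeR adjusted *p* = 7.31e-04). Of the 6 genes chosen for somatostatin cells 4 fell and 1 rose (median -1.48). *Elfn1*, a synaptic adhesion protein of somatostatin cells, fell by 2.77 on the log2 scale (edgeR adjusted *p* = 1.63e-04), or by 3.37 without infarct 3. The gene that rose was *Hpse*, which encodes the heparan sulfate-degrading enzyme heparanase and is also expressed by immune cells, at 147, 65.0, and 74.8 CPM in infarcts and 1.01 to 1.43 CPM in contralateral cortices (log2 fold change 6.32, edgeR adjusted *p* = 2.48e-06).

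Of the 6 genes chosen for VIP cells, 4 were tested and 3 fell (median -2.01). They included *Tac2*, the neurokinin B precursor, which fell by 2.65 on the log2 scale, or by 3.34 without infarct 2, on 1, 6, and 3 counts in infarcts, all under the filter cutoff (edgeR adjusted *p* = 0.00245), while the receptor gene *Kit* did not pass (-0.45, edgeR adjusted *p* = 0.102). Of the 6 genes chosen for LAMP5 cells, 4 were tested and 2 fell (median -1.11). The cannabinoid receptor gene *Cnr1*, abundant in cholecystokinin basket cells, fell by 2.19 (edgeR adjusted *p* = 0.00966). *Id2*, a regulator that many glial and immune cells express too, had a log2 fold change of 0.06 (edgeR adjusted *p* = 0.759). *Ndnf*, also on this list, had a log2 fold change of -0.13 (edgeR adjusted *p* = 0.604), and its values overlapped between regions. The fall of *Lamp5* was thus larger than that of each tested gene chosen for LAMP5 cells, as values without a test of the difference.

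Of 12 receptor genes for somatostatin, neuropeptide Y, VIP, and cholecystokinin, 10 were tested, of which 6 fell, 1 rose, and 3 passed in neither direction (median -1.90). *Sstr2*, a somatostatin receptor, had 1.03, 0.660, and 0.341 CPM in infarcts and 6.56 to 9.49 CPM in contralateral cortices (log2 fold change -3.62, edgeR adjusted *p* = 2.58e-05). *Cckbr*, the brain receptor of cholecystokinin, fell by 3.59 on the log2 scale (edgeR adjusted *p* = 6.01e-06). *Vipr2* rose (1.87, edgeR adjusted *p* = 0.00762) from 3 to 18 counts in contralateral libraries to between 18 and 44 counts in infarct libraries, and entered the test through the infarcts. Of the neuropeptide Y receptors, *Npy5r* fell by 2.98 on the log2 scale (edgeR adjusted *p* = 9.14e-05) and the other two did not pass. *Npy1r* had 222, 131, and 147 CPM in infarcts and 118 to 150 CPM in contralateral cortices (0.33, edgeR adjusted *p* = 0.183). The counts of *Npy2r* were 5, 25, and 258 in infarcts against 154, 102, and 97 in contralateral cortices, so that infarct 3 alone set its value (-0.23, edgeR adjusted *p* = 0.868), which was -2.77 without that library (edgeR adjusted *p* = 3.65e-04).

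Other neuropeptides and granins were mostly downregulated. Of 15 genes, 11 were tested, of which 8 fell and 1 rose (median -2.65). *Adcyap1*, the precursor of the VIP-related peptide PACAP, fell the most, from 186 to 296 counts in contralateral libraries to 6, 12, and 2 counts in infarcts (-5.02, edgeR adjusted *p* = 4.37e-06, and -5.72 without infarct 2), and it entered the test through the contralateral libraries. *Penk*, the enkephalin precursor, was called higher (1.26, edgeR adjusted *p* = 0.0353), with 18.8, 70.7, and 42.2 CPM in infarcts and 20.9, 15.5, and 18.7 CPM in contralateral cortices. Infarct 1 lay within the control range, and the call was lost without infarct 2 or infarct 3 and without any of the contralateral libraries, at edgeR adjusted *p* values of up to 0.110.

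Of 8 genes that process peptides and release dense-core vesicles, 6 fell and 2 passed in neither direction (median -2.76). The convertase gene *Pcsk1*, which cuts peptide precursors, had 2.78, 2.35, and 5.04 CPM in infarcts and 33.3 to 47.6 CPM in contralateral cortices (-3.56, edgeR adjusted *p* = 5.85e-06). *Pam*, the enzyme that amidates peptide ends and is also made outside neurons, had 361, 415, and 351 CPM in infarcts and 333 to 355 CPM in contralateral cortices (0.13, edgeR adjusted *p* = 0.452). All 10 pan-neuronal genes fell (median -2.93), from -2.35 for *Uchl1* to -3.84 for *Snap25*. The falls of *Lamp5* and *Vip* lay beyond this range, and those of the other 7 tested genes among the 10 lay within it, as a description without a test.

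**Figure D4:**
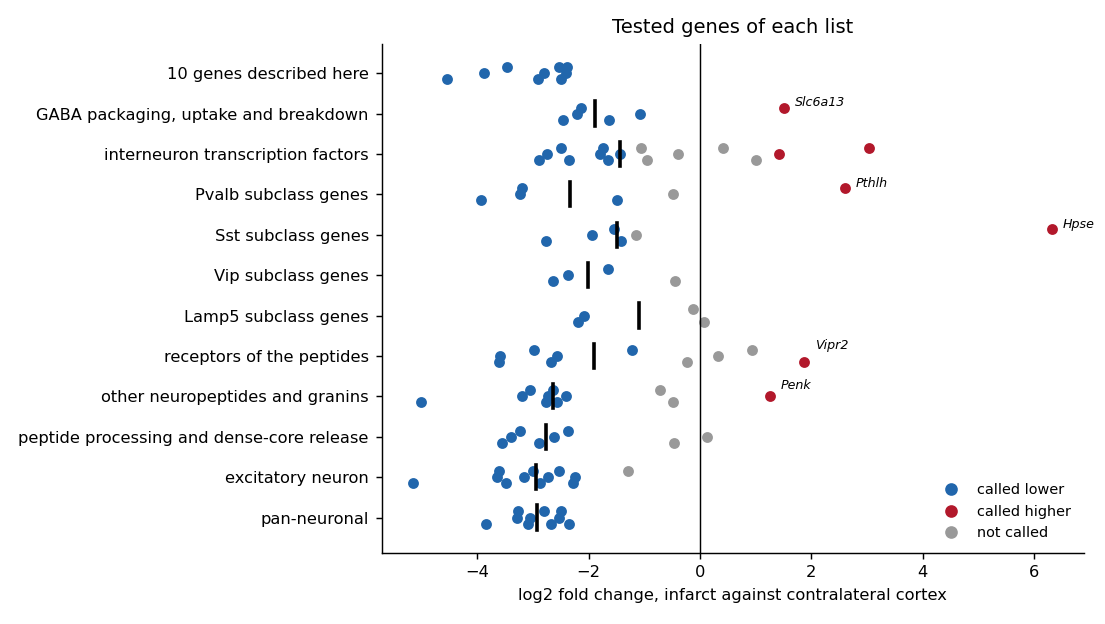
Log2 fold change of each tested gene (points) of 12 lists, infarct against contralateral cortex, colored by call, with a line at the median of each list other than the genes described here. The neuronal lists lie mostly left of 0, and the labelled genes that rose include *Hpse* at 6.32, *Pthlh* at 2.60, and *Penk* at 1.26.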

How the data were processed

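The authors prepared stranded mRNA libraries, demultiplexed with bcl2fastq 2.19, trimmed with Trimmomatic 0.32, aligned to GRCm38 with STAR 2.5.2b, and counted with HTSeq. The HTSeq version, annotation, and strand setting are not given in the sources used here. The deposited tables hold whole counts for Ensembl genes that were not normalized. Reads mapping to several places or genes are not among them, which can lower genes with close copies. The 5 summary entries were left out.

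A symbol was found for 45143 identifiers and none for 935. Positions are from GENCODE M21 on GRCm38. *Dlx6os1* has a pair of identifiers, of which the one that passed the filter was used. Counts were analyzed with edgeR 4.0.16 in R 4.3.3 (filterByExpr, a cutoff of 0.771 CPM, TMM, robust glmQLFit and glmQLFTest, Benjamini-Hochberg over 15554 genes), with an adjusted *p* under 0.05 and a log2 fold change beyond 1. The fit was tested on simulated data. Ratios used counts plus 0.5 and SciPy 1.17.1. RefSeq promoter windows were searched by script.

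Alternatives were DESeq2 1.42.0, limma voom 3.58.1, RLE, upper-quartile and library-total scaling, no low-count filter, no threshold on the fold change, at least 10 counts in every library, a replicate block, each library left out, and 5 counts added in ratios. The principal-transcript length and the alternatives for single list genes were added after seeing the data. The 10 genes and all lists were chosen with earlier results of these data known. Named were the 10 genes, *Slc17a7*, *Snap25*, the lowest and highest gene of each list, those that rose, and the 5 nearest profiles. *Slc32a1*, *Dlx1*, *Lhx6*, *Ndnf*, *Cckbr*, *Npy1r*, *Npy2r*, and *Npy5r* were chosen after their values were seen. Some genes of the lists are not reported here.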

Additional observations from a re-analysis of the deposited data

How the results depend on the processing

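Of the 10 genes, 8 or 9 were called lower under each of the 15 alternatives, and none of the 9 tested genes changed direction. *Cck* lost its call without infarct 1 (edgeR adjusted *p* = 0.0585) and with no low-count filter (edgeR adjusted *p* = 0.0606). The latter also ended the calls of *Cnr1*, *Penk*, and *Uchl1* (edgeR adjusted *p* from 0.0646 to 0.145), and the block that of *Penk*, while *Calb2* was not tested where 10 counts in every library were required. Over all genes, 2504 to 4787 were called lower. With at least 10 counts in every library, which tests fewer genes, the genes called lower went from 6 to 2 for receptors, from 8 to 4 for other neuropeptides, and from 4 to 2 for the somatostatin subclass. With no low-count filter they went from 2 to 1 for the LAMP5 subclass, from 3 to 5 for the VIP subclass, and from 2 to 0 for the striatum. Whether samples with the same number share a mouse is not known, and the deviations of same-numbered samples correlated at -0.21, 0.11, and 0.02. With the replicate block 9 of the 10 genes, and 3222 genes in all, were called lower. With 1 library left out, the difference of *Gad1* to *Slc17a7* ranged from -0.14 to 0.40, that of *Pvalb* to *Gad1* from -0.63 to 0.59, and that of *Cck* to *Gad1* from -0.36 to 0.74. With 5 counts added, the difference of *Calb2* to *Gad1* was 0.21 in place of -0.58. With 1 library left out, the log2 fold change of *Npy2r* ranged from -2.77 to 0.34 and that of *Id2* from -0.030 to 0.19. The cause was not tested. Depth limits *Cort*, with at most 6 counts in a library, and the infarct values of *Calb2* and *Pvalb*.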
